A study of Rattus norvegicus with 8 samples.

Results

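Genes of xenobiotic and polyphenol metabolism were followed in the rat colon after a diet with cocoa, with cocoa fiber or with inulin. The 39 genes of this module were chosen by name and read in 5 classes, namely regulators, oxidation, reduction and hydrolysis, conjugation, and efflux. A probe on the arrays was matched to 38 of the 39 genes through its RefSeq accession, and 33 of the 38 were well above background in enough rats to be tested, out of 19899 genes tested in all. The gene without a matched probe was Ugt2b17, which the RefSeq gene table lists as an older name of Ugt2b15 and of Ugt2b1.

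The samples were pieces from the middle of the colon of 16 female Wistar rats, 6 weeks old, with 4 rats in each of 4 diet groups. REF rats ate a standard chow, C10 rats ate chow with cocoa powder, which brought polyphenols and fiber, CF rats ate chow with cocoa fiber powder in which the fiber was matched to C10 and polyphenols were low, and I rats ate chow with inulin, a soluble fiber, at the soluble fiber level of C10. Cocoa is also rich in theobromine, a methylxanthine that the paper names beside flavonoids as a candidate for the effects of cocoa. Its amount in the chows was not given, so it cannot be told apart from polyphenols in C10 against CF. All 4 chows contained the antioxidant preservative tert-butylhydroquinone, a known activator of NRF2, in slightly larger amount in REF. Each channel was taken as 1 rat, hybridized once against a rat of another diet on 1 of 8 two-color arrays. In each dye there were 2 rats of each diet. The labels give no rat identity, and the study's methods name 4 samples per diet with dye swaps for each sample's RNA. That a channel is 1 rat is therefore an assumption. Nothing in the labels states which rats shared a cage or litter, so that the p-values measure the spread between these 16 rats.

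Cocoa polyphenols are handled in the gut wall like drugs. They are oxidized by cytochrome P450 and flavin monooxygenases, reduced or hydrolyzed, joined to glucuronic acid, sulfate or glutathione, and pumped out of the cell by ABC transporters. The nuclear receptors PXR (Nr1i2) and CAR (Nr1i3), the aryl hydrocarbon receptor AHR, which is held back by its repressor AHRR, and the antioxidant regulator NRF2 (Nfe2l2) switch these genes on when such compounds are present, and Cyp1a1 is the classical target of AHR.

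AHR binds DNA at sites with the core GCGTG, and NRF2 at antioxidant response elements, searched here as TGACNNNGC. Both were searched on both strands in the 250 bases before the annotated start of each gene (RefSeq, GRCr8). A window was found for 33 of the 39 members, of which 10 (30.3%) held the AHR core and 2 (6.06%) the antioxidant response element, against 25.9% and 10.1% of all 33469 windows, and no match to one overlapped a match to the other in a member. Such a match is a description of the letters and not evidence of binding. The windows below belong to Ahrr and Ugt1a6, known AHR targets described below, and to Cyp2f4 and Cyp4f1, the members that varied most between rats, with the matches in capitals. They lie at chr1:30821969-30822218 (plus strand), chr9:96194768-96195017 (plus strand), chr1:91543518-91543767 (plus strand) and chr7:12672554-12672803 (minus strand), each ending at the base before the start. Ahrr held 3 AHR cores, Ugt1a6 and Cyp4f1 1 each, and Cyp2f4 none.
Ahrr: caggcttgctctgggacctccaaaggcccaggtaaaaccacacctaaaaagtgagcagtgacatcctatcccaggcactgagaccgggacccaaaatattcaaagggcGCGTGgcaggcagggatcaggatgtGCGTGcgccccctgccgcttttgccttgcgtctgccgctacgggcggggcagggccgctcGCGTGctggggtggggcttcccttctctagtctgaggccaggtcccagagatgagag
Ugt1a6: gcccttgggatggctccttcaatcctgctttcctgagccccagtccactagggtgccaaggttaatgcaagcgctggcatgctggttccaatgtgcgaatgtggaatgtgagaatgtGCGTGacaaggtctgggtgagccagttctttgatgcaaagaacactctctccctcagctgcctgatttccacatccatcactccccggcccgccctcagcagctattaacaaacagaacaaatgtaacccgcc
Cyp2f4: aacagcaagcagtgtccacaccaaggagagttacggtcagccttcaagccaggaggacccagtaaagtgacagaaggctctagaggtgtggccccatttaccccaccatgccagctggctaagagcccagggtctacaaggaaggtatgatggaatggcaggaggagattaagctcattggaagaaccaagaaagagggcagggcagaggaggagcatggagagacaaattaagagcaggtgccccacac
Cyp4f1: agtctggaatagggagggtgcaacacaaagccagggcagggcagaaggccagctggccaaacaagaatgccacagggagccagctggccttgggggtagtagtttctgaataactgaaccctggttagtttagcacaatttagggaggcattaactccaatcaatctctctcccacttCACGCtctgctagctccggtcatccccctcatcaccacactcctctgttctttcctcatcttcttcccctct

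Of 15 listed epithelial markers 13 were tested, and of 8 small intestine genes 6 were. Passing the detection filter therefore does not tell colon from small intestine. Of 8 liver genes 5 (Alb, Fga, Fgb, Cyp2c11 and Tat) were below this filter, while Apoa2, Ttr and Serpina1 passed it. Between 68.4% and 83.8% of spots were well above background in each rat. As these are whole pieces, fewer cells of a type and less RNA per cell cannot be told apart. Several sets of marker genes differed in signal between rats. The 4 tested posterior Hox genes, which mark position along the hindgut, were on balance higher in C10 than in REF (median log2 difference 1.005, 4 of 4 higher, none called), and their mean centered signal ranged from 0.11 to 1.68 in C10 and from -2.15 to 0.34 in REF. The 8 smooth muscle markers had a median difference of -0.76 with none called, and C10 rat 1 had the lowest smooth muscle signal at -1.96, while the other C10 rats lay between 0.08 and 0.24. Of 8 mast cell markers 7 were lower in C10 than in REF by the limma test (median -1.33). The 6 tested B cell markers differed widely within each diet, from -1.24 to 1.502 in C10 and from -1.07 to 1.40 in REF.

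No member passed the limma test in any of the 6 diet comparisons after Benjamini-Hochberg adjustment over all genes. In C10 against REF, 0 of 33 members were called, where 0.945% of all genes tested were (188 genes). In C10 against CF and C10 against I the members called were again 0, with 0.432% and 0.548% of all genes called. In CF against REF, I against REF and CF against I, 0 of 33 members and 0% of all genes were called. At an unadjusted p under 0.05 the members counted 10 of 33 (30.3%) in C10 against REF, where 17.1% of all genes did, and the smallest adjusted p of a member was 0.0714 by limma. The members at that level were 4 for CF minus REF (6.39% of all genes), 1 for I minus REF (5.71%), 5 for C10 minus CF (13.5%), 3 for C10 minus I (12.2%) and 1 for CF minus I (2.83%). Rank product, the test named in the study's methods, called 4 members in C10 against REF, Ces2c, Cyp2f4, Cyp4f1 and Fmo2, with 1.44% of all genes called, and their values are given below. It called 3 members in CF against REF (0.653% of all genes), 1 in I against REF (0.357%), 0 in C10 against CF (0.568%), 2 in C10 against I (1.16%) and 1 in CF against I (0.191%). The members were chosen with earlier results of these data known. Their counts are therefore descriptions, and an excess over the share of all genes is not independent support. The plot of the differences from REF shows the 33 members by class.

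**Figure D1:**
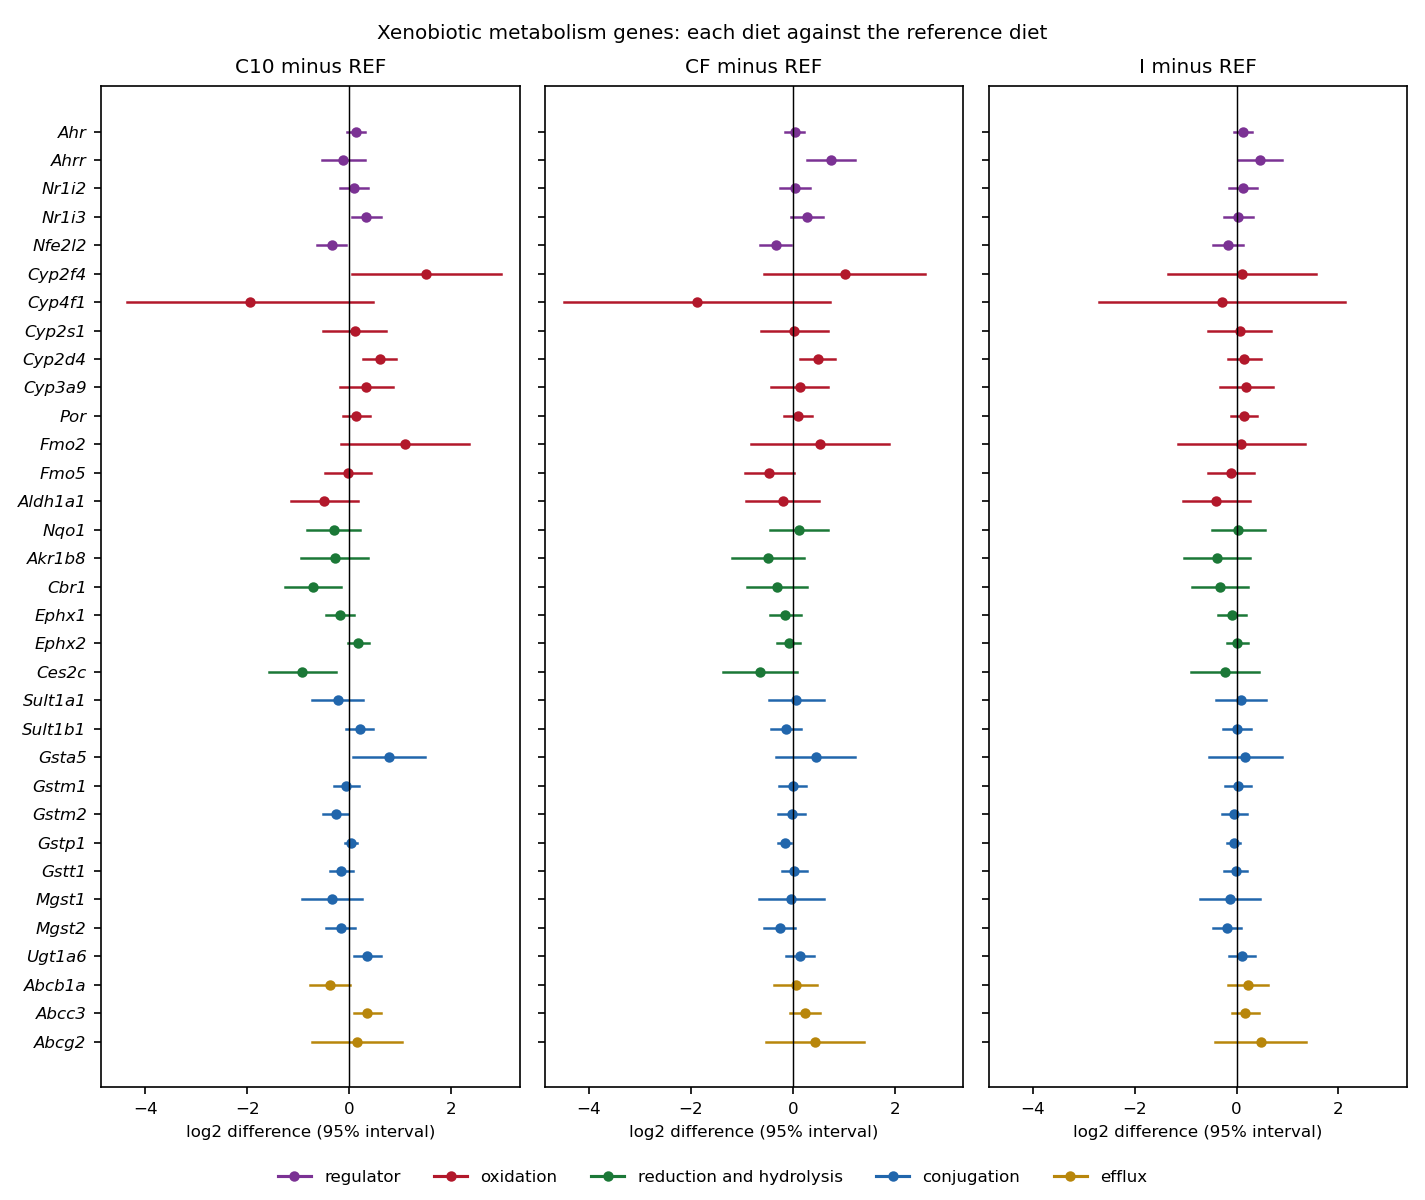
Log2 difference in signal (horizontal axis) of the 33 tested genes between C10, CF or I and REF, 4 rats per diet, with points for the fitted difference, lines for its 95% interval and colors for the class. The intervals are widest for Cyp4f1, Cyp2f4 and Fmo2, and the 3 panels share the same REF rats.

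Among the regulators, Ahr and Nr1i2 differed little between C10 and REF, and Nr1i3 (0.34) and Nfe2l2 (-0.34) differed more without a call. The repressor Ahrr was the member closest to a call outside the comparison of C10 with REF. Ahr, the receptor, had normalized log2 intensities of 6.94, 6.79, 7.10 and 6.81 in REF, 7.16, 6.91, 7.12 and 6.92 in C10, 7.14, 6.70, 7.02 and 6.96 in CF, and 7.08, 7.11, 7.20 and 6.88 in I. The 4 groups overlapped, with a C10 minus REF difference of 0.13 (SE 0.08, limma adjusted p = 0.461, n = 4 per diet).

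Ahrr stood at 9.81, 9.87, 9.41 and 9.81 in REF, at 9.77, 9.81, 9.46 and 9.52 in C10, at 10.54, 10.90, 9.68 and 10.06 in CF, and at 9.98, 9.45, 10.26 and 10.23 in I. The C10 rats lay within the range of REF, and 3 of 4 CF rats and 3 of 4 I rats lay above every REF and C10 rat. The difference was -0.86 for C10 minus CF (SE 0.20, limma adjusted p = 0.0779), -0.57 for C10 minus I (SE 0.22, limma adjusted p = 0.308), 0.75 for CF minus REF (SE 0.22, limma adjusted p = 0.685) and 0.46 for I minus REF (SE 0.20, limma adjusted p = 0.867). The C10 minus CF difference passed the threshold with the set of arrays as a term (-1.01, limma adjusted p = 0.0428) and without CF rat 3 (-1.03, limma adjusted p = 0.0429), and was -0.57 without CF rat 2.

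Nr1i3 was higher by 0.34 in C10 than in REF (SE 0.13, limma adjusted p = 0.216), and Nfe2l2 was at 12.35 ± 0.25 in C10 and 12.66 ± 0.23 in REF (SD, n = 4 each), a difference of -0.34 (SE 0.13, limma adjusted p = 0.211). Another probe of Nr1i3 gave -0.01. Nfe2l2 was as far from REF in CF (-0.34) as in C10, from a comparison with the same REF rats. Nr1i2 differed by 0.10 (SE 0.13), less than the spread between rats.

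In the oxidation class, the AHR targets Cyp1a1 and Cyp1b1 were at background in all diets, Cyp2d4 was modestly higher in C10, and Cyp2f4, Fmo2 and Cyp4f1 had the largest differences and the largest spread. Cyp1a1 was well above background in 0 of 16 rats. Its log2 intensities of 6.10, 5.89, 6.08 and 5.997 in REF, 6.02, 6.01, 6.05 and 5.90 in C10, 5.98, 6.31, 6.06 and 5.99 in CF, and 5.99, 6.07, 6.02 and 6.02 in I lay beside the lowest signal that counted as well above background on each array (5.82 to 6.21). Cyp1b1 was well above background in 1 rat of REF, with values from 5.97 to 6.05 in REF, 5.96 to 6.10 in C10, 5.97 to 6.11 in CF and 5.99 to 6.06 in I. A difference in either gene was not detectable at this signal, and Fmo1, well above background in 2 C10 rats and 1 CF rat, was not tested either.

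Cyp2d4, a drug-oxidizing P450, measured 8.73, 8.59, 8.72 and 8.57 in REF, 9.31, 9.44, 8.70 and 9.22 in C10, 9.25, 8.63, 8.86 and 9.22 in CF, and 8.54, 8.66, 8.98 and 8.80 in I. Of the 4 C10 rats 3 lay above all REF rats, and C10 rat 3 lay among them. The C10 minus REF difference of 0.60 (SE 0.15, 95% interval 0.28 to 0.91, limma adjusted p = 0.0714, exact permutation p = 0.0857) was the closest to a call among the members, where the smallest exact p of 4 rats against 4 is 0.0286. It passed the threshold in 3 of 29 other settings. Without C10 rat 3 it was 0.74 (limma adjusted p = 0.0165) and without REF rat 3 it was 0.64 (limma adjusted p = 0.0481). Without normalization between arrays it was 0.67 (limma adjusted p = 0.0378). It was 0.43 without C10 rat 2 (limma adjusted p = 0.209) and 0.50 without REF rat 2 (limma adjusted p = 0.297). The difference was 0.49 for CF minus REF (SE 0.16, limma adjusted p = 0.687) and 0.15 for I minus REF (SE 0.15).

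Cyp2f4, a P450 of the lung and airway, was at 7.76, 6.91, 8.36 and 6.46 in REF, 8.09, 8.78, 7.32 and 10.97 in C10, 8.57, 6.94, 9.18 and 9.48 in CF, and 8.26, 7.23, 8.56 and 6.88 in I. The groups overlapped, and C10 rat 4 was the highest of all 16 rats. The C10 minus REF difference of 1.51 (SE 0.68, limma adjusted p = 0.273) was 0.83 without C10 rat 4 and 2.19 without C10 rat 1.

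Fmo2, a flavin monooxygenase, showed the same rat apart. Its values were 7.59, 7.74, 8.83 and 7.52 in REF, 7.90, 8.51, 8.06 and 11.53 in C10, 8.52, 7.90, 8.79 and 9.86 in CF, and 8.75, 7.81, 8.94 and 7.87 in I, with a C10 minus REF difference of 1.09 (SE 0.58, limma adjusted p = 0.363), 0.42 without C10 rat 4 and 1.83 without C10 rat 1. Its other probe gave 0.87.

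Cyp4f1, which hydroxylates fatty acids and leukotrienes, spanned the largest range of any member. It was at 11.56, 10.93, 7.96 and 12.24 in REF, 8.96, 9.97, 10.71 and 7.02 in C10, 8.30, 12.58, 7.002 and 6.88 in CF, and 7.31, 12.50, 7.31 and 12.25 in I. Values were widely spread in every diet, over a range of 5.70 on the log2 scale. Every C10 rat lay below REF rat 1, REF rat 2 and REF rat 4, while REF rat 3 lay among the C10 rats. The difference from REF was -1.95 in C10 (SE 1.12, limma adjusted p = 0.405), -1.88 in CF (SE 1.22) and -0.29 in I (SE 1.12), and in C10 it was -1.27 without REF rat 4 and -2.81 without REF rat 3.

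Cyp3a9, Por (the electron donor of the P450s), Cyp2s1, Fmo5 and Aldh1a1, a retinal-oxidizing dehydrogenase, differed between C10 and REF by 0.34, 0.14, 0.11, -0.03 and -0.49 on the log2 scale, with limma adjusted p-values from 0.449 to 0.963. With 1 rat left out, Cyp3a9 ranged from 0.13 (without C10 rat 2) to 0.69 (without C10 rat 1) and Aldh1a1 from -0.78 (without REF rat 2) to -0.02 (without C10 rat 1). The median over the 9 oxidation members was 0.14, beside 0.01 over all genes tested, with 6 of 9 higher where 53.8% of all genes were. The median of the class was 0.23 without REF rat 1.

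In the reduction and hydrolysis class, 5 of 6 members were lower in C10 than in REF, none of them called by limma, with a median of -0.29 on the log2 scale (-0.16 without REF rat 4). Rank product called Ces2c. Ces2c, a carboxylesterase that hydrolyzes ester bonds of drugs and dietary esters, was at 7.52, 8.02, 6.74 and 8.27 in REF, 6.73, 7.20, 6.83 and 6.36 in C10, 6.81, 7.80, 6.55 and 6.34 in CF, and 6.67, 7.63, 6.66 and 7.98 in I. REF rat 3 lay among the C10 rats and the other 3 REF rats lay above all of them. The C10 minus REF difference was -0.92 (SE 0.31, limma adjusted p = 0.158, exact permutation p = 0.0857). It passed the threshold without REF rat 3 (-1.15, limma adjusted p = 0.0483). Without REF rat 2 it was -0.71, and with 1 rat left out the limma adjusted p reached 0.479.

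Cbr1, the carbonyl reductase, measured 14.01, 12.55, 13.80 and 13.59 in REF, 13.25, 12.65, 12.56 and 12.51 in C10, 13.02, 13.78, 12.82 and 12.59 in CF, and 13.29, 12.71, 12.94 and 13.36 in I. Of the REF rats 3 lay above every C10 rat, while REF rat 2 lay among them, and the difference was -0.72 (SE 0.26, limma adjusted p = 0.179). It was -1.04 without REF rat 2.

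Nqo1, the quinone reductase induced by both AHR and NRF2, stood at 9.14, 8.48, 8.32 and 9.26 in REF, 8.66, 8.75, 8.40 and 8.19 in C10, 8.50, 9.70, 8.45 and 8.48 in CF, and 8.09, 9.03, 8.53 and 9.12 in I. The groups overlapped, and the difference of -0.30 for C10 minus REF (SE 0.24, limma adjusted p = 0.573) was within the spread between rats. The aldo-keto reductase Akr1b8 (-0.29) and the epoxide hydrolases Ephx1 (-0.18) and Ephx2 (0.18) also differed by no more than their spread.

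In the conjugation class, Ugt1a6 was the only member of the 33 whose C10 and REF rats did not overlap, a pattern that 4.63% of all genes showed (2.60% with C10 higher). A single such member is near that share. This UDP-glucuronosyltransferase glucuronidates simple phenols, and its gene shares its last exons with the other Ugt1a isoforms, so the signal may include them. Its log2 intensities were 13.89, 13.79, 13.44 and 13.80 in REF and 14.13, 14.30, 13.98 and 13.89 in C10, against 13.95, 13.82, 13.37 and 13.84 in CF and 13.54, 13.60, 13.80 and 13.95 in I. The lowest C10 rat lay just above the highest REF rat. The difference of 0.36 (SE 0.12, 95% interval 0.10 to 0.62) had an exact permutation p of 0.0286, the smallest possible, and did not pass the adjusted limma test (p = 0.153). The difference was 0.23 without C10 rat 2, 0.29 with the set of arrays as a term, and 0.27 by the gene's other probe. From REF, the difference was 0.14 in CF (SE 0.13) and 0.11 in I (SE 0.12).

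Gsta5, a class alpha glutathione transferase, was at 9.34, 8.99, 9.40 and 8.57 in REF, 9.80, 9.54, 8.95 and 11.10 in C10, 9.66, 8.88, 9.80 and 10.05 in CF, and 9.56, 9.13, 9.72 and 8.94 in I, again with C10 rat 4 the highest of 16. The C10 minus REF difference of 0.78 (SE 0.33, limma adjusted p = 0.245) was 0.42 without C10 rat 4. Gsta5 is the present RefSeq name of the gene that the probe's accession matches, and the same table lists it as an older name of Gsta3 and of Gsta1, described below, which were lower in C10. Class alpha transferases are near copies of each other, and 1 probe cannot be assigned to a single copy with certainty.

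The other transferases differed between C10 and REF by -0.33 to 0.21. Gstp1, the class pi enzyme of the epithelium, varied least, at 13.72 ± 0.09 in C10, 13.65 ± 0.03 in REF, 13.55 ± 0.07 in CF and 13.62 ± 0.09 in I (SD, n = 4 each). Its difference of 0.20 for C10 minus CF had a limma adjusted p of 0.134. The sulfotransferase Sult1b1, which sulfates phenols, had a difference of 0.21 from REF in C10 and 0.34 from CF (limma adjusted p = 0.257), and Sult1a1 of -0.23 from REF. Gstm1, Gstm2, Gstt1, Mgst1 and Mgst2 differed from REF by -0.06, -0.26, -0.15, -0.33 and -0.17. Sult2b1 was well above background in 2 of 16 rats and was not tested. The class median was -0.11, with 4 of 10 higher.

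Of the efflux pumps, Abcc2, the pump that carries glucuronides to the lumen, was well above background in 0 of 16 rats, with values from 5.99 to 6.28. Abcc3, which exports glucuronides toward the blood, measured 8.74, 8.33, 8.12 and 8.41 in REF, 8.95, 8.85, 8.57 and 8.66 in C10, 8.71, 8.54, 8.35 and 8.56 in CF, and 8.12, 8.66, 8.59 and 8.55 in I. All C10 rats were above 3 of the 4 REF rats, and the difference was 0.36 (SE 0.12, limma adjusted p = 0.164, exact permutation p = 0.0857).

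Abcg2, the breast cancer resistance protein, which pumps sulfates and plant compounds into the lumen, stood at 9.35, 9.56, 8.17 and 9.94 in REF, 9.53, 10.20, 9.59 and 8.27 in C10, 9.45, 10.30, 8.71 and 9.02 in CF, and 8.44, 9.82, 9.40 and 9.995 in I. The groups overlapped throughout, and the C10 minus REF difference was 0.15 (SE 0.41, 95% interval -0.74 to 1.04). It was -0.18 without REF rat 3. Abcb1a, the P-glycoprotein pump, was well above background in 13 of 16 rats and was at 6.19 ± 0.21 in C10, 6.56 ± 0.18 in REF, 6.51 ± 0.48 in CF and 6.69 ± 0.28 in I (SD, n = 4 each), with a C10 minus I difference of -0.60 (SE 0.20, limma adjusted p = 0.224). C10 rats lay only on arrays 1 to 4 and I rats only on arrays 5 to 8, and with the set of arrays as a term, which rests on REF and CF rats in both sets, the difference was -0.75 (limma adjusted p = 0.293).

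**Figure D2:**
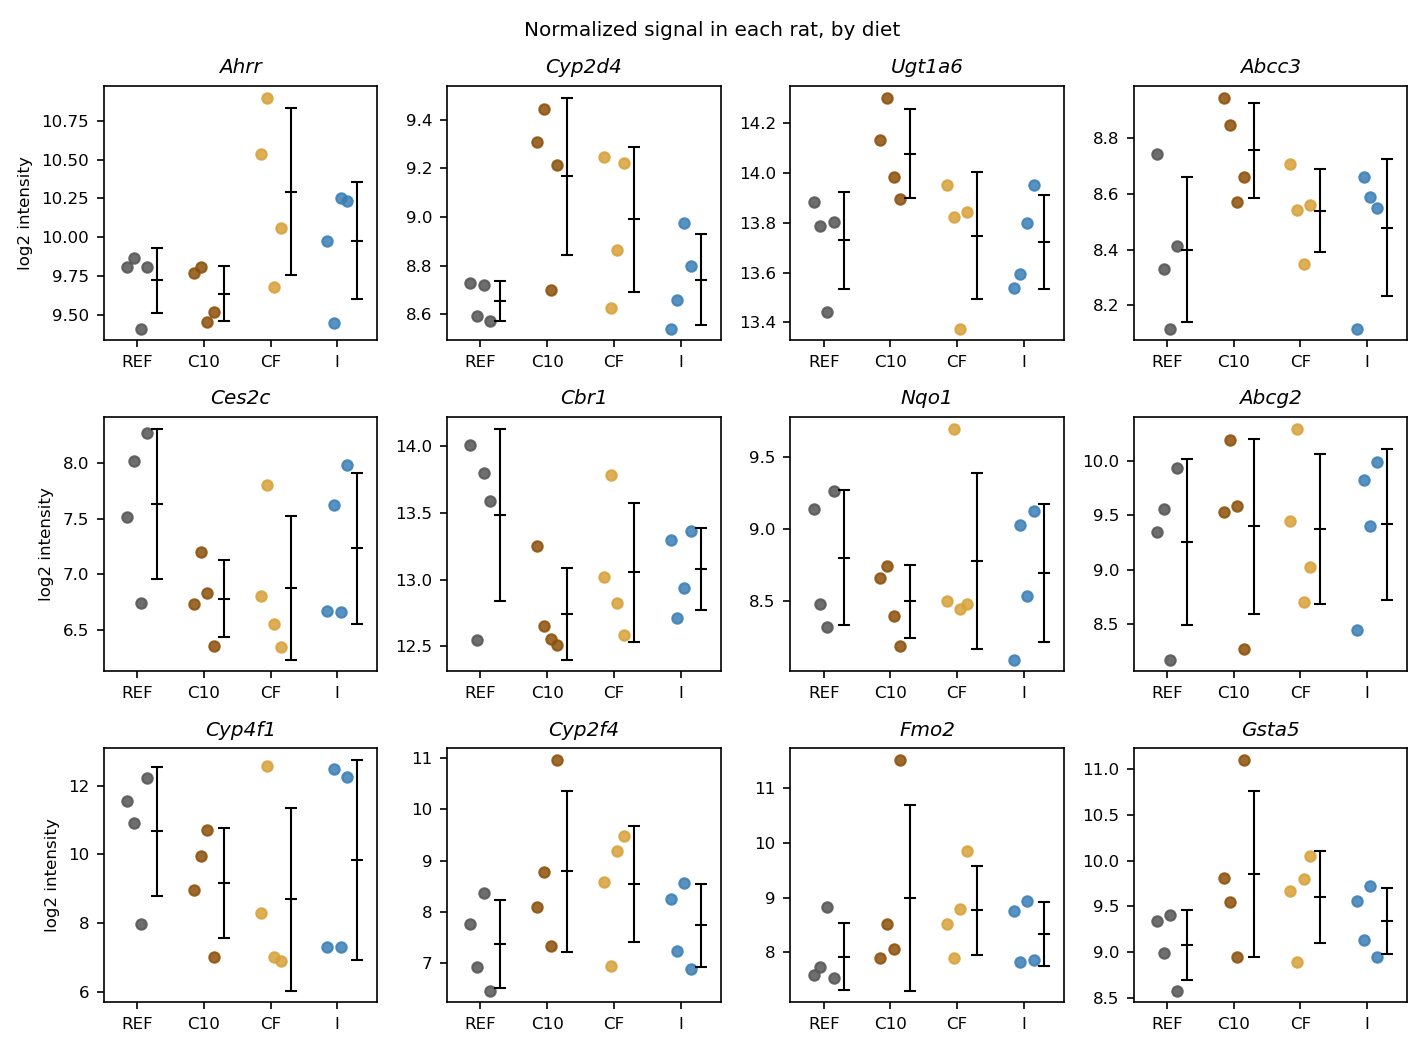
Normalized log2 intensity (vertical axis, scaled for each gene) in each of 16 rats for 12 genes, by diet, with points for rats and bars for the mean and SD of 4 rats. Ugt1a6 in C10 lies above REF without overlap, Ahrr is highest in CF, and Cyp4f1 and Abcg2 are widely spread in every diet.

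Many members varied more between rats of 1 diet than most genes did. The median within-diet SD was 0.31 over the 33 members and 0.17 over all genes tested, and 12 of 33 members lay above the 95th percentile of all genes. Those were Cyp4f1 (SD 2.34), Cyp2f4 (1.13), Fmo2 (1.04), Abcg2 (0.74), Ces2c (0.60), Gsta5 (0.58), Akr1b8 (0.55), Sult1a1 (0.54), Aldh1a1 (0.53), Cyp2s1 (0.52), Cbr1 (0.47) and Nqo1 (0.47). Taken as deviations from each diet's mean over the 16 rats, Cyp2f4, Gsta5 and Fmo2 varied together (Pearson r 0.96 for Cyp2f4 with Gsta5 and 0.90 with Fmo2), as did Cyp4f1 with Ces2c (0.93), Mgst2 (0.91), Nqo1 (0.88) and Abcg2 (0.86). Cyp2f4 and Cyp4f1 varied in opposite directions (r -0.84). These values are descriptions over rats that share arrays in pairs, and of 528 pairs of members 23 had an absolute r of at least 0.8.

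For some members this variation went with the posterior Hox genes. The mean signal of the 4 tested Hox genes was entered as a slope in the limma fit, beside diet and dye and with the array as a block, over 19895 genes. The slope was called for 7 of 33 members, where it was for 1.72% of all genes, 3 of them positive and 4 negative. Permutation of rats within diets, which does not take account of the rats that share an array, called 1 member by Pearson r (Fmo2, 0.161% of all genes) and 0 by Spearman rho (0.166%) after adjustment over all genes, with 11 of 33 members and 9.73% of all genes at an unadjusted p of r below 0.05. The limma slope was chosen after the data were seen, and it called 0 members without CF rat 2, 0 without C10 rat 4, and 4 without each of CF rat 4, REF rat 3 and REF rat 4.

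Cyp2f4 had r = 0.84 (permutation p = 0.0002, adjusted p = 0.0585), rho = 0.92 (permutation p = 0.0001, adjusted p = 0.0519) and a slope of 1.12 log2 units per unit of Hox signal (SE 0.19, limma adjusted p = 0.00935). Its r, on deviations from the diet means, was 0.85 without REF rat 4 and CF rat 2, whose Hox deviations lay farthest from the median, 0.82 without C10 rat 4, and 0.89 and 0.87 within arrays 1 to 4 and 5 to 8. Gsta5 had r = 0.79 (permutation p = 0.00103, adjusted p = 0.0958) and rho = 0.89 (permutation p = 0.0002, adjusted p = 0.0585), and Fmo2 r = 0.72 (permutation p = 5e-05, adjusted p = 0.0398) and rho = 0.85 (permutation p = 0.00031, adjusted p = 0.0682).

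The called slopes that were negative belonged to Ces2c, Cyp4f1, Abcg2 and Nqo1. Their r was -0.79, -0.77, -0.77 and -0.76 and their rho -0.84, -0.81, -0.85 and -0.69, with permutation p-values of r from 0.00057 to 0.00269 and adjusted ones from 0.0788 to 0.143. Without REF rat 4 and CF rat 2 the 7 values of r kept their sign, with absolute values from 0.62 for Nqo1 to 0.85 for Cyp2f4. With the Hox and B cell signals of each rat as covariates, the C10 minus REF differences were -0.14 for Cyp2f4, -0.23 for Fmo2, -0.01 for Gsta5, 0.89 for Cyp4f1, -0.15 for Ces2c, 0.25 for Nqo1 and 1.17 for Abcg2 (limma adjusted p = 0.0514). The sign was turned for Cyp2f4, Fmo2, Gsta5, Cyp4f1 and Nqo1 (limma adjusted p from 0.538 to 0.994). It was kept for Ces2c (limma adjusted p = 0.761) and Abcg2 and for Ugt1a6 (0.49), Abcc3 (0.45), Cyp2d4 (0.44) and Cbr1 (-0.58). The 7 genes were picked by their slope on the Hox signal in these same rats, and that signal was on balance higher in C10 than in REF. A shift of their differences was therefore built in and is not a further test.

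**Figure D3:**
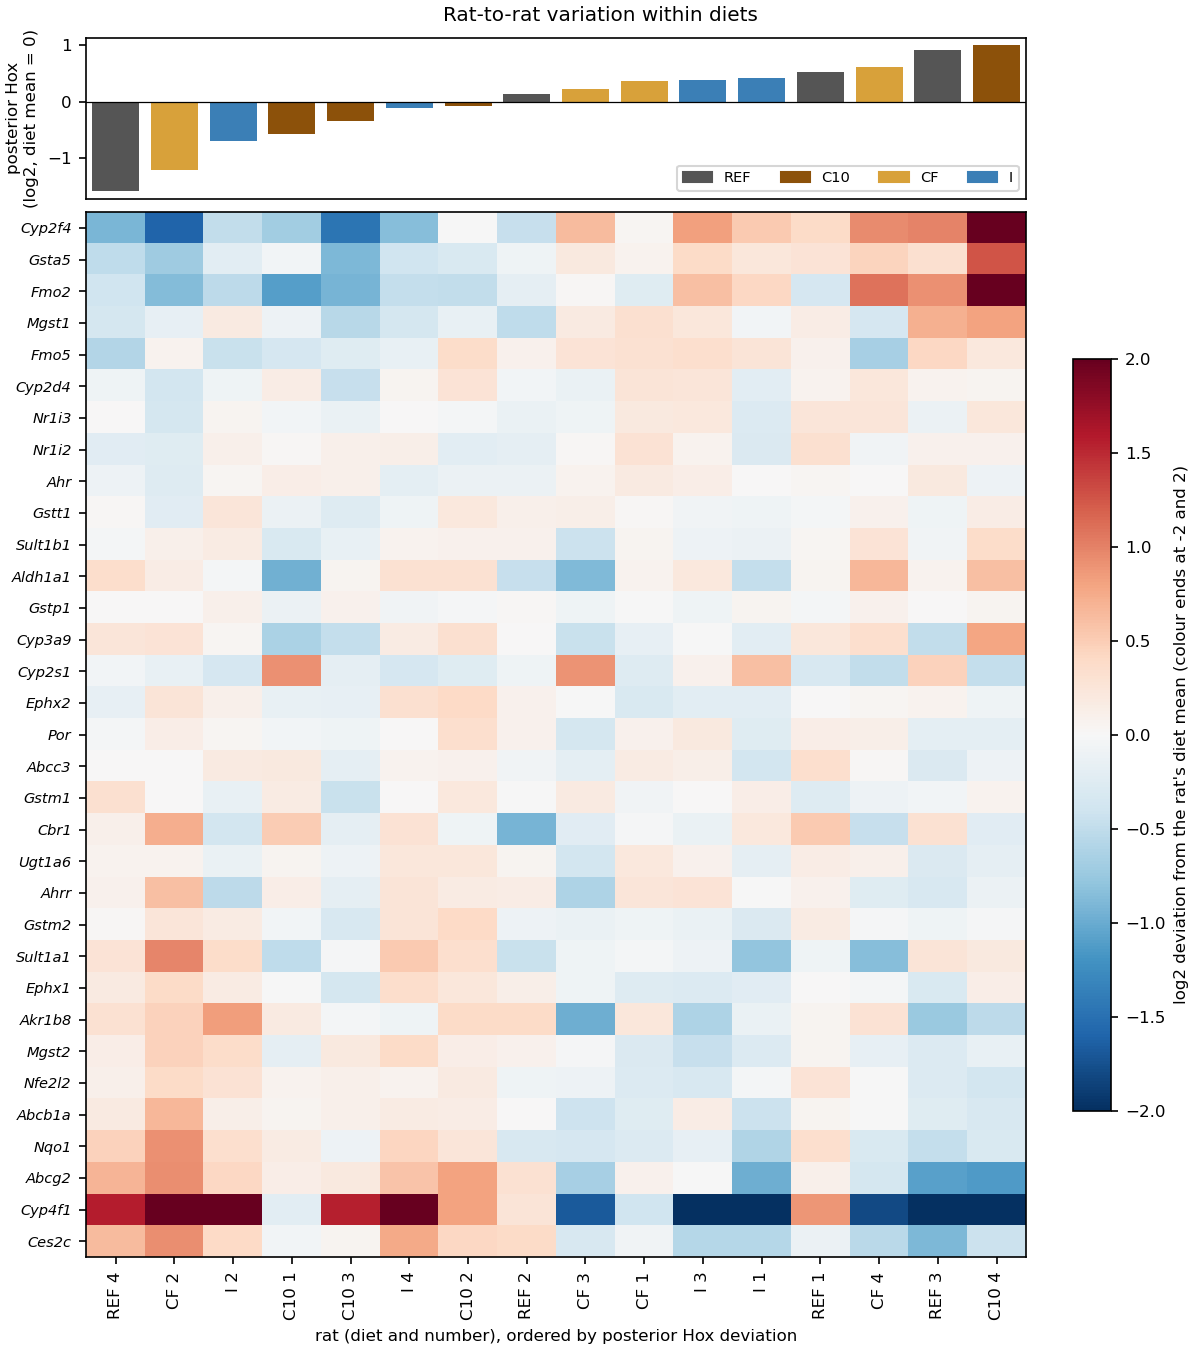
Deviation of each gene (rows, ordered by Pearson r with the Hox signal) from its diet mean in each rat (columns), as a log2 value in color, with rats ordered by the deviation of the posterior Hox signal shown as bars above and bar colors for the diet. Cyp2f4, Gsta5 and Fmo2 are high in the rats at the right, and Cyp4f1, Ces2c and Abcg2 are high in the rats at the left in the columns of REF rat 4, CF rat 2 and I rat 2.

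The signal of the B cell markers also differed between rats. It fell into 2 separate ranges, -1.24 to -0.30 in 9 rats and 0.41 to 1.83 in 7. For this reason no correlation over all rats is given. The 4 rats with the highest B cell signals (CF rat 3, I rat 1, C10 rat 1 and REF rat 3) had the 4 highest values of the epithelial P450 Cyp2s1, 8.45, 8.31, 8.50 and 8.07, where the other 12 rats lay between 7.06 and 7.79. The same 4 rats and I rat 3, with the next highest B cell signal, had the 5 lowest values of Sult1b1, from 11.85 to 12.31. Cyp2s1 and Sult1b1 were the 2 of 33 members that followed the B cell signal most closely, and Cyp3a9, Ephx1 and Ahr came next. Cyp2s1 was read from the brightest of its 3 probes. The other probes were dimmer and had a smaller SE for C10 minus REF (0.15 and 0.10 against 0.30). They were not set beside the B cell signal. How many of all genes show such a pattern was not counted. The part of lymphoid tissue in these values was not tested.

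Other genes of the pathway were read from a wider list of 214 names, of which 136 were tested. In C10 against REF 3 of them were called, all lower and all glutathione-linked enzymes of the conjugation class, where 0.608% of all genes were called lower. Gsta3, a class alpha transferase, was at 8.46, 8.34, 8.26 and 8.53 in REF and 7.50, 7.87, 7.31 and 7.18 in C10, with every C10 rat below every REF rat, a difference of -0.94 (SE 0.15, limma adjusted p = 0.0135, exact permutation p = 0.0286). The CF rats (7.82 to 8.65) and the I rats (8.03 to 8.82) surrounded the REF values.

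Gsta1 fell by 0.67 in C10 against REF (SE 0.15, limma adjusted p = 0.0493), with 8.24, 8.90, 8.17 and 8.32 in C10 and 9.11, 8.80, 9.35 and 9.22 in REF, and the groups overlapped through C10 rat 2 and REF rat 2. Against CF it fell by 0.89 (SE 0.15, limma adjusted p = 0.0256), and Gsta3 by 0.85 (SE 0.15, limma adjusted p = 0.0295). The decrease of Gsta3 was 0.97 against I (SE 0.17, limma adjusted p = 0.0207). The limma call of Gsta1 against REF was lost in 24 of 29 other settings (adjusted p up to 0.336) and against CF in 8, and that of Gsta3 in 4 against REF, 11 against CF and 9 against I, among them the set of arrays as a term against I (-1.04, limma adjusted p = 0.0708).

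Hpgds, the hematopoietic prostaglandin D synthase, a glutathione-dependent enzyme that mast cells express, was lower by 0.57 on the log2 scale in C10 than in REF (SE 0.12, limma adjusted p = 0.0383) and by 0.62 than in I (SE 0.13, limma adjusted p = 0.0473). Its values were 7.69, 7.54, 7.32 and 7.58 in C10, below all REF rats (7.93, 8.18, 8.05 and 8.45). The mean centered signal of the 8 mast cell markers was -1.33 to -0.60 in C10 and 0.25 to 0.52 in REF, and its part in the Hpgds difference was not tested. The call was lost in 16 of 29 other settings against REF and in 21 against I, where it was -0.45 with the set of arrays as a term (limma adjusted p = 0.235).

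The remaining calls were outside the comparison with REF. Aox1, aldehyde oxidase, fell by 0.58 in C10 against CF (SE 0.11, limma adjusted p = 0.0342), with 7.19, 7.40, 7.18 and 7.56 in C10 and 8.10, 7.92, 7.67 and 7.82 in CF. Dcxr, a carbonyl and sugar reductase, rose by 0.38 in the same comparison (SE 0.07, limma adjusted p = 0.0393), from 10.12, 10.34, 10.41 and 10.13 in CF to 10.50, 10.68, 10.696 and 10.51 in C10. Cyp4f18, a leukotriene-hydroxylating P450 of leukocytes, fell by 0.42 in C10 against I (SE 0.08, limma adjusted p = 0.0379), with 6.54 to 6.62 in C10 and 6.85 to 7.18 in I. The calls were lost in 13 of 29 other settings for Aox1, 16 for Dcxr and 17 for Cyp4f18. In each of these 3 the groups did not overlap, as in 3.55% of all genes for C10 against CF and 5.78% for C10 against I.

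**Figure D4:**
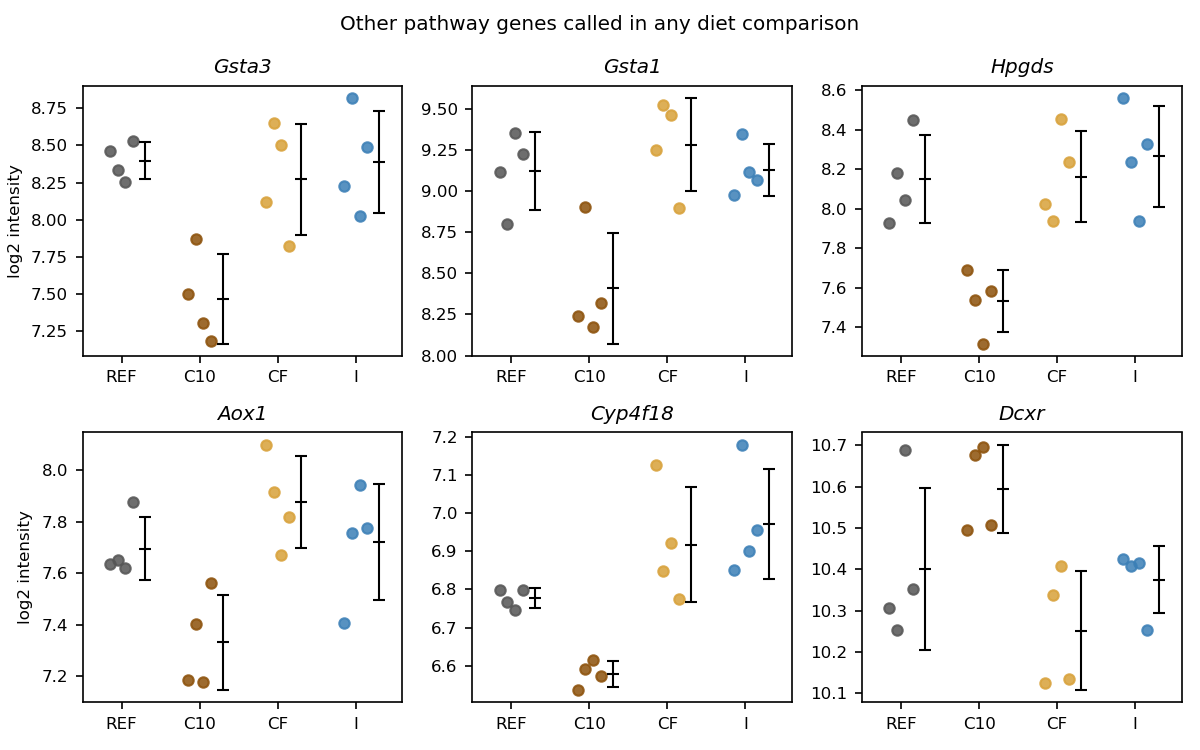
Normalized log2 intensity (vertical axis, scaled for each gene) in each of 16 rats for the 6 other pathway genes called in any comparison, by diet, with points for rats and bars for the mean and SD of 4 rats. C10 lies lowest in 5 of the 6 genes and highest for Dcxr.

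Read by regulator, few known targets were called. Of 8 listed AHR targets 4 were tested, and none was called in C10 against REF, with Ugt1a6 and Aldh3a1 on the higher side and Ahrr and Nqo1 on the lower and a median of 0.06. Of 15 NRF2 targets 14 were tested and 2 were called in C10 against REF, Gsta3 and the malic enzyme Me1, both lower, where 0.945% of all genes were called (0.608% lower), with 8 of 14 higher and a median of 0.02, beside 0.01 over all genes.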

How the data were processed

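Total RNA of 16 rat colon pieces had been hybridized on 8 Agilent two-color arrays, and the authors deposited the spot intensity values of both channels as read by Agilent Feature Extraction 10.7.3.1. Another deposited file, of the whole series, has 8 value columns that could not be matched to samples was not used. Median spot signals were background-corrected (normexp, offset 50), normalized by loess over position (span 0.4) and intensity (span 0.3) within arrays and by Aquantile between them, in limma 3.58.1 (R 4.3.3, statmod 1.5.0, and version 1.17.8 of data.table). Control and outlier spots were left out, spots of a probe averaged, and the brightest probe kept for each gene. A probe was tested if it was well above background (in at least 50% of its spots) in at least 4 of 16 rats. The number of arrays limits the precision.

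Each channel was taken as 1 rat. Diet and dye were fitted with the array as a block (duplicateCorrelation, 0.42, with lmFit and eBayes), and adjusted p-values are Benjamini-Hochberg over 19899 genes, with a call at an adjusted p below 0.05. The separate-channel fit first planned (intraspotCorrelation with lmscFit) gave an estimate of the correlation that was too high on simulated data, so it became an alternative. On simulated data for C10 against REF over 19899 genes the fit recovered 93% of 2-fold and 99% of 4-fold changes, with 7.25% false calls. The changed genes were drawn at random from all genes, whose median within-diet SD was 0.17, against 0.31 over the members. These shares therefore do not hold for members with a wide spread. Single-gene permutation tests were exact and two-sided, and correlations with the posterior Hox signal used 100000 permutations within diets, adjusted over all genes. A limma slope on that signal, with the array as a block, was added after the data were seen. Alternatives covered background, normalization, filter, probe choice, dye, array set, covariates, a log-ratio model, rank product (100 permutations) and each rat left out. All tested members were named, with the other pathway genes called in any comparison or not overlapping between C10 and REF. Ahr, Cyp1a1, Nqo1, Ugt1a6 and Abcg2 were to be shown rat by rat whatever their result. Other members shown rat by rat had a low p or a wide spread. The members and lists were chosen with earlier results of these data known.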

Additional observations from a re-analysis of the deposited data

Results flagged for a closer look

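In 10 of 132 groups of 4 rats 1 rat stood apart from the other 3 by Dixon's criterion at the 95% level, where chance alone gives about 5% of groups. Ahrr was 9.41 in REF rat 3, with the others at 9.81 to 9.87. Nr1i2 was 11.60 in I rat 1, with the others at 11.95 to 12.00 (11.997). Por was 10.03 in CF rat 3, with the others at 10.47 to 10.52. Fmo2 was 8.83 in REF rat 3, with the others at 7.52 to 7.74, and 11.53 in C10 rat 4, with the others at 7.90 to 8.51. Nqo1 was 9.70 in CF rat 2, with the others at 8.45 to 8.50. Akr1b8 was 9.24 in CF rat 3, with the others at 10.44 to 10.68. Ephx2 was 9.21 in C10 rat 2, with the others at 8.64 to 8.73. Gstt1 was 8.60 in I rat 2, with the others at 8.26 to 8.27. Abcb1a was 6.26 in I rat 1, with the others at 6.81 to 6.85. REF rat 3, I rat 1 and CF rat 3 accounted for 2 each.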

How the results depend on the processing

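No paired analysis by replicate number was possible because the labels carry none and the rat numbers used here follow the array order. The 2 rats of an array were paired by the array block and in the log-ratio model. The count of members called, 0 in the 6 comparisons, was 1 in C10 against REF without normalization between arrays (Cyp2d4) and 1 in C10 against CF with the array set as a term (Ahrr). By rank product it was 4 in C10 against REF, 3 in CF against REF (Ces2c, Cyp2f4, Cyp4f1), 1 in I against REF (Cyp4f1), 2 in C10 against I (Cyp2f4, Cyp4f1) and 1 in CF against I (Cyp4f1). Leaving out 1 rat gave 0 to 2 in C10 against REF (2 without REF rat 3, 1 without C10 rat 3) and 0 to 1 in C10 against CF (1 without CF rat 3). Class medians for C10 minus REF moved as follows. Oxidation was 0.23 on processed signals, 0.23 with the array set, 0.26 in the log-ratio model and 0.13 to 0.23 with 1 rat left out. Reduction and hydrolysis was 0.12 with the Hox and B cell covariates and -0.45 (without REF rat 3) to -0.16 (without REF rat 4) with 1 rat left out. Conjugation was 0.00045 with the covariates and -0.15 to -0.027 with 1 rat left out. Efflux was -0.052 with the array set, 0.45 with the covariates and -0.18 (without REF rat 3) to 0.37 (without REF rat 4) with 1 rat left out.

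Single C10 minus REF differences changed sign with the covariates in Ahrr (0.13), Nr1i2 (-0.085), Cyp2f4 (-0.14), Cyp4f1 (0.89), Fmo2 (-0.23), Nqo1 (0.25), Akr1b8 (0.37), Ephx1 (0.0076), Gsta5 (-0.0058), Gstm1 (0.0067), Mgst2 (0.11) and Abcb1a (0.025). By the plain means of rank product Cyp2s1 was -0.021 and Fmo5 0.0077, without normalization between arrays Gstm1 was 0.0052, in the log-ratio model Gstm1 was 0.048 and Gstp1 -0.0011, and with the array set Abcg2 was -0.052. With 1 rat left out the sign changed in Cyp2s1 (-0.32 to 0.27), Por (-0.0100 to 0.23), Fmo5 (-0.18 to 0.10), Gstm1 (-0.18 to 0.050) and Abcg2 (-0.18 to 0.49). The cause was not tested. Of the other pathway genes, the call of Gsta3 in C10 against REF was lost in 4 of 29 settings, that of Hpgds in 16 and that of Gsta1 in 24. Against CF it was lost in 8 for Gsta1, 11 for Gsta3, 13 for Aox1 and 16 for Dcxr, and against I in 9 for Gsta3, 17 for Cyp4f18 and 21 for Hpgds. Leaving out 1 rat reversed the C10 minus REF difference or moved it by over 1.5 times in 27 of 33 members. The 7 members with a called Hox slope were 1 by permutation of r, 0 by permutation of rho, and 0 (without CF rat 2 or C10 rat 4) to 8 with 1 rat left out (4 without CF rat 4, REF rat 3 or REF rat 4).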

Other observations

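Of the 136 other pathway genes tested, 10 did not overlap between C10 and REF, a pattern of 4.63% of all genes. Of these, 6 lay higher in C10 without a limma call: Papss2, which makes the sulfate donor (1.04 on the log2 scale), Ugt2b10 (0.45), Gss, glutathione synthetase (0.33), the efflux pump Abcc4 (0.27), Slc22a18 (0.26) and the uptake carrier Slco2b1 (0.23). Cyp4f18 (-0.23) and Aox1 (-0.36) were lower without a call, and Hpgds and Gsta3 were called.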
